A study of Homo sapiens with 12 samples.

Results

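The interaction between an siRNA against mutant NRAS and poly(dA:dT) was measured in HT1080 cells, an established human fibrosarcoma line that carries an NRAS Q61K mutation. For each gene, the response to poly(dA:dT) (poly(dA:dT) minus DMSO) under the NRAS siRNA had the same response under the control siRNA subtracted from it. RNA was sequenced in 12 libraries, 3 in each of 4 groups: control siRNA (siNC) with DMSO, siNC with poly(dA:dT), NRAS siRNA (siQ61K) with DMSO, and siQ61K with poly(dA:dT). All 4 groups share the HT1080 background and an siRNA. One siRNA against NRAS was used, no delivery control for poly(dA:dT) is named, and the sources used here give neither dose nor time. Of 55243 gene symbols with 1 entry in the deposited table, 14722 reached at least 1 TPM (a relative level scaled for transcript length and for the library's total) in at least 3 of the 12 libraries and were tested. The third highest library was at 1.001 TPM for FXYD6P2, just inside this limit, and at 0.999 TPM for AC016737.1, just outside it. Of the genes tested, 538 reached 1 TPM in exactly 3 libraries, and 19 reached it in siQ61K poly(dA:dT) libraries alone, so that those 19 passed only through one group. Genes that reached it in fewer than 3 libraries outside siQ61K poly(dA:dT) also needed that group to pass, and are not all among the 19.

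Poly(dA:dT) is a synthetic double-stranded DNA. In the cytosol it is sensed as DNA by cGAS, which signals through STING, and it is also transcribed by RNA polymerase III into RNA that is sensed by RIG-I (gene DDX58), which signals through MAVS. Both routes lead to type I interferon, which acts through its receptor and factors such as STAT2 and IRF9 on interferon-stimulated genes, many of which encode antiviral proteins. Mutant NRAS drives the ERK kinase pathway. The study concerned the interferon-alpha response in NRAS-mutant tumour cells and named that response as an outcome in these samples.

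The interaction was computed on log2(TPM + 1). A gene with an interaction of 0 is additive on this scale, which means that the effects of siRNA and poly(dA:dT) multiply in TPM. A gene above 0 is more than additive and a gene below 0 less than additive, whichever way it moved. The scale understates changes of genes with low TPM. All 12 libraries entered 1 limma model with Benjamini-Hochberg adjustment over all genes tested and a threshold of 0.05. The labels do not state whether the 3 libraries of a group are separate cultures. Adjusted p-values here therefore rest on a spread between libraries that may be technical only. NRAS itself was at 59.6, 60.6 and 41.4 TPM with siNC DMSO, 43.0, 45.9 and 51.7 with siNC poly(dA:dT), 15.5, 15.2 and 19.9 with siQ61K DMSO, and 20.1, 20.3 and 23.5 with siQ61K poly(dA:dT). Every siQ61K library was below every siNC library, and the interaction for NRAS was not called (0.51, SE 0.23, adjusted p = 0.137). TPM does not separate the mutant from the normal NRAS allele. Mesenchymal markers summed to 6693 to 11624 TPM over the 12 libraries, while none of 12 immune cell markers was tested and their sum was 0 to 1.66 TPM. The mesenchymal sum was mostly VIM (4728 to 7742.5 TPM). The mesenchymal markers THY1 (at most 0.126 TPM) and PRRX1 (at most 0.0685 TPM) were too low to be tested. Epithelial and endothelial markers summed to 488 to 779 TPM, mostly KRT8 (331 to 571 TPM) and KRT18 (156 to 216 TPM).

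Of the 14722 genes, 883 (6.00%) were more than additive, 1779 (12.1%) were less than additive and 12060 were not called. Genes more than additive had a median response to poly(dA:dT) of -0.23 under siNC and 0.58 under siQ61K. Genes less than additive had a median response of 0.25 under siNC and -0.71 under siQ61K. The classes are defined by the difference between these 2 responses, so medians that part in this way follow from the definition. Taken alone, the response under siNC was called higher for 0.0747% and lower for 0.0475% of genes, and under siQ61K for 6.92% and 18.3%. The knockdown was called higher for 16.6% and lower for 14.8% of genes in DMSO, and for 8.71% and 12.6% with poly(dA:dT). Not being called does not show additivity: 6176 of the 12060 had a 95% interval inside -1 to 1 on the log2 scale. With median-of-ratios scaling the counts were 1353 more and 1498 less than additive, and with quantile normalization 1426 and 1639. Leaving out 1 library gave from 304 more and 672 less than additive (siNC DMSO replicate 1 left out) to 1319 more (siQ61K poly(dA:dT) replicate 1, which also moved the less than additive count to 2558). The counts fell to 436 and 1118 with siNC DMSO replicate 2 left out, to 382 and 890 with siNC poly(dA:dT) replicate 1, and to 475 and 1150 with siNC poly(dA:dT) replicate 2. They fell to 428 and 949 with siQ61K DMSO replicate 1 left out, to 588 more with siQ61K DMSO replicate 2, to 446 and 929 with siQ61K poly(dA:dT) replicate 2, and to 313 and 728 with siQ61K poly(dA:dT) replicate 3.

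The interaction followed the GC content of the transcripts. Median GC content was 41.1% among genes more than additive, 59.8% among genes less than additive and 48.1% among all genes tested. Across genes, which are not independent replicates and share these libraries, Spearman's rho between interaction and GC content was -0.656. Libraries of 1 group also differed in this respect: the correlation of a library's deviation from the gene means with GC content ranged from -0.490 to -0.0312 with siNC DMSO and from -0.437 to 0.0903 with siQ61K poly(dA:dT). It ranged from -0.128 to 0.275 with siNC poly(dA:dT) and from 0.292 to 0.517 with siQ61K DMSO. Every siNC DMSO library was thus below 0 and every siQ61K DMSO library above 0, so the trend differed between groups too. Its cause was not tested. When each library was corrected for GC content and transcript length by a smooth curve, rho fell to -0.0390 and, of 14299 genes with a known GC content, 201 (1.41%) were more and 96 (0.671%) less than additive. Both fits called 159 genes more than additive and 87 less than additive. Each result below is therefore given as deposited and, where the call differs, after the correction.

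**Figure D1:**
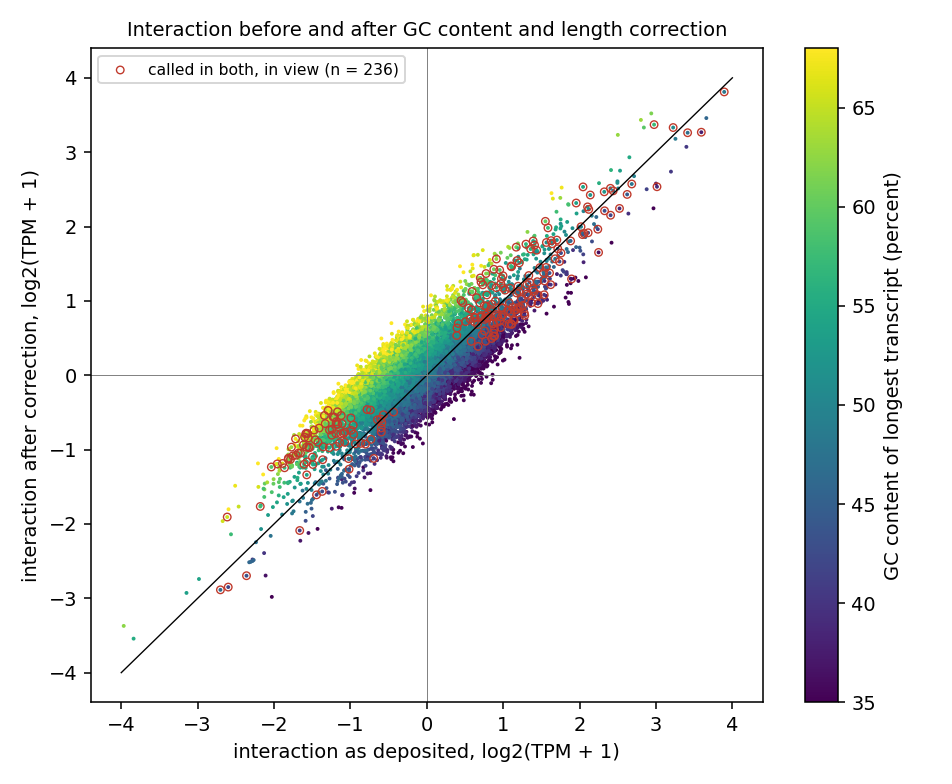
Interaction of each gene on log2(TPM + 1) as deposited (x axis) against the same value after the GC content and length correction (y axis), coloured by the GC content of the longest transcript in percent. Red circles are genes called with the same sign in both fits, and the diagonal marks equal values: genes of high GC content lie above it and genes of low GC content below it.

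The antiviral effector list held the highest number of genes more than additive of the lists examined. Of 51 tested, 34 were more than additive and none was less than additive, against 6.00% and 12.1% of all genes, and their median interaction was 1.33 against -0.06 over all genes. After the correction 33 were more than additive and none less, with a median of 1.16. Called interactions in the list ran from 0.85 to 3.59 (IFI44L), or to 3.01 without IFI44L, which passed the 1 TPM filter only through the combination. In 38 of the 51, every siQ61K poly(dA:dT) library was above all 9 other libraries, which held for 2.83% of all genes. Because the interferon response was an outcome the study itself named for these samples, this list does not stand as independent evidence of a direction.

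IFI44L, an interferon-stimulated gene, was below 1 TPM outside the combination. It stood at 0.0513, 0.0395 and 0 TPM with siNC DMSO, at 0.753, 0.470 and 0.900 with siNC poly(dA:dT), at 0.243, 0.397 and 0.505 with siQ61K DMSO, and at 26.9, 24.6 and 27.8 with siQ61K poly(dA:dT). The 3 groups without the combination were low, and the 3 libraries of the combination lay close together far above them. Multiplied effects on the log2(TPM + 1) scale would have given 1.27 TPM and added effects 1.06 TPM. The response was 0.72 under siNC and 4.31 under siQ61K, an interaction of 3.59 (SE 0.27, adjusted p = 4.50e-05). IFI44L is 1 of the 19 genes that reached 1 TPM in the combination alone, so it could be tested only because it was high there, and its value is a description. Its neighbour in the genome and relative IFI44 stood at 6.86, 6.397 and 6.91 TPM with siNC DMSO, 16.9, 12.4 and 16.5 with siNC poly(dA:dT), 6.44, 8.60 and 7.29 with siQ61K DMSO, and 139, 151 and 132 with siQ61K poly(dA:dT). The knockdown alone did not pass the test for IFI44 (adjusted p = 0.558), poly(dA:dT) alone raised it (adjusted p = 0.0104), and the combination lay far above both. Its interaction was 3.01 (SE 0.20, adjusted p = 2.50e-05), and 141 TPM was observed where 16.5 was expected from multiplied effects.

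BST2 (tetherin, which holds budding virus at the cell surface) went in opposite directions with and without poly(dA:dT). It stood at 2.59, 1.78 and 2.32 TPM with siNC DMSO, 6.31, 4.65 and 9.66 with siNC poly(dA:dT), 0.514, 0.997 and 0.503 with siQ61K DMSO, and 49.7, 20.4 and 26.1 with siQ61K poly(dA:dT). The knockdown lowered it in DMSO (log2 fold change -0.96, adjusted p = 0.0302), and the combination was the highest group with no overlap. Its interaction was 2.98 (SE 0.43, adjusted p = 0.00395).

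IFIT1, IFI6 and IFIT3, which each agent raised alone, were more than additive. IFIT1, which binds viral RNA lacking the host cap, stood at 6.4002, 7.15 and 5.98 TPM with siNC DMSO, 43.1, 31.4 and 48.5 with siNC poly(dA:dT), 19.4, 20.9 and 20.2 with siQ61K DMSO, and 542, 535 and 440.2 with siQ61K poly(dA:dT). The groups did not overlap. Added effects would have given 54.7 TPM and multiplied effects 116 TPM, while the mean was 506 ± 57.0 TPM (SD, n = 3). IFI6, an interferon-stimulated mitochondrial and endoplasmic reticulum protein, had a mean of 1006 ± 96.3 TPM (SD, n = 3) in the combination, against 139.5 expected from added and 377 from multiplied effects. The choice of scale thus changed the size of the excess for these 2 genes but not its direction. Their interactions were 2.11 (SE 0.21, adjusted p = 0.000391) for IFIT1 and 1.41 (SE 0.23, adjusted p = 0.00630) for IFI6. IFIT3, which partners IFIT1, had an interaction of 2.62 (SE 0.25, adjusted p = 0.000367), with means of 3.03, 8.46, 5.99 and 99.9 TPM in the same order of groups. Among the 34 genes more than additive, the observed mean was 1.83 to 20.8 times the mean expected from multiplied effects, with a median of 3.26. The upper end was IFI44L, which passed the 1 TPM filter only through the combination. The 34 were selected for a called interaction above 0, so an observed mean above the expected one follows from the selection.

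**Figure D2:**
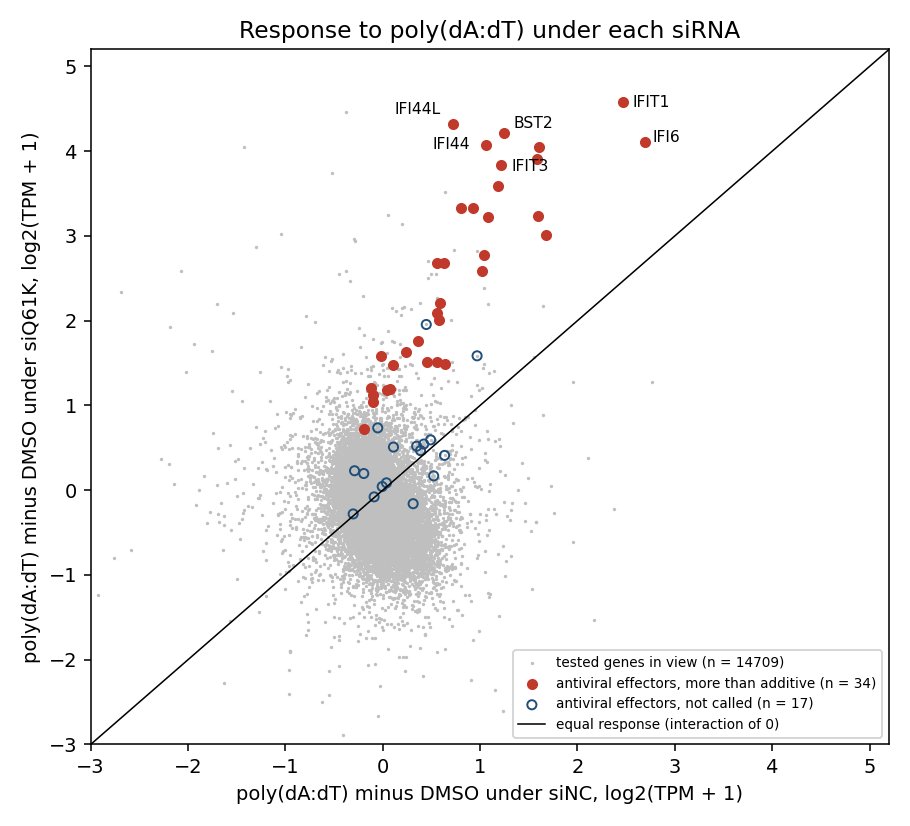
Response to poly(dA:dT) on log2(TPM + 1) under siNC (x axis) against that under siQ61K (y axis) for 14709 of the 14722 genes tested; the line marks an interaction of 0. The 34 antiviral effectors called more than additive (red) lie above the line, and the 17 not called (open circles) include genes on the line.

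The promoters of these genes are shown because antiviral effectors moved together and are classical targets of the interferon-induced factor that holds STAT2 and IRF9 and binds the interferon-stimulated response element. Sequences are from RefSeq (GRCh38.p14), 5′ to 3′ on the gene's strand, upstream of an annotated start, and capitals mark the fixed letters of the core searched for: GAAA, any 2 bases and GAAA again, or on the other strand TTTC, any 2 bases and TTTC, overlapping matches included. The stretches lie at chr1:78620272-78620396 (+) for IFI44L, chr1:78649759-78649788 (+) for IFI44, chr19:17405733-17405772 (-) for BST2, chr10:89392495-89392541 (+) for IFIT1, chr10:89327829-89327896 (+) for IFIT3 and chr1:27672264-27672360 (-) for IFI6.
IFI44L: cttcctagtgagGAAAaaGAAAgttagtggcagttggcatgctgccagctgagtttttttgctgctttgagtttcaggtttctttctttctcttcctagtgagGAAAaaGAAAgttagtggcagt
IFI44: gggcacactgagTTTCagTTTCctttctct
BST2: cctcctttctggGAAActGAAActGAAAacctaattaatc
IFIT1: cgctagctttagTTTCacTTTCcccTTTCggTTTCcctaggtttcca
IFIT3: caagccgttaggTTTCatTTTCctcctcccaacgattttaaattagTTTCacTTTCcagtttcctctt
IFI6: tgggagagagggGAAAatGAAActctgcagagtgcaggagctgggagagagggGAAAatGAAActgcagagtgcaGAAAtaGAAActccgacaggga
In this window IFI44L, IFIT1 and IFIT3 held 2 matches, IFI6 held 3, and the 2 matches of BST2 share a GAAA.

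Across the table, 10571 of the 14722 genes tested had a promoter entry, which runs from 250 bases before to 50 bases after a start. The core was found at 1 or more starts of 426 of them (4.03%), of 68 of 700 genes more than additive (9.71%) and of 41 of 1418 genes less than additive (2.89%). Among genes more than additive in both fits the count was 35 of 125 (28.0%), and among antiviral effectors more than additive it was 22 of 29 (75.9%). Of antiviral effectors not called, 4 of 9 held it. Of all 35116 promoters in the table, 1255 (3.57%) held it. Promoters of genes more than additive had a median GC content of 62.3%, against 67.8% for genes less than additive and 64.7% for all, so base composition differed between the classes here too. A match is a run of letters and not a measured binding site, and these shares were not tested.

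Among the sensors, 3 were more than additive. DDX58, which encodes RIG-I, stood at 13.9, 14.5 and 11.3 TPM with siNC DMSO, 19.3, 17.2 and 19.5 with siNC poly(dA:dT), 8.02, 7.98 and 8.48 with siQ61K DMSO, and 54.6, 63.5 and 58.8 with siQ61K poly(dA:dT). The knockdown alone put it lowest and the combination put it highest, with no overlap between any of the groups. Its interaction was 2.24 (SE 0.18, adjusted p = 5.99e-05). IFI16, a DNA sensor of the PYHIN family, was at 94.1 to 155 TPM in the other 9 libraries and at 277, 282 and 274 in the combination (interaction 1.18, SE 0.13, adjusted p = 0.000733). AIM2, the PYHIN sensor of the DNA inflammasome, differed from both: the knockdown lowered it to 5.39, 5.12 and 3.61 TPM from 11.999, 13.0 and 12.5 in DMSO. With poly(dA:dT) the siNC libraries had 9.47, 12.1 and 13.7 TPM of AIM2 and the siQ61K libraries 12.7, 12.8 and 12.6, which overlap. Its interaction was 1.37 (SE 0.23, adjusted p = 0.00737), and the combination did not lie above the siNC groups.

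These 3, of 23 sensing genes tested, were called after the correction too, AIM2 narrowly (adjusted p = 0.0486). Over all genes 6.00% were more than additive as deposited and 1.41% after the correction, and 12.1% and 0.671% were less than additive. The 3 sensing genes less than additive, named next, were near that share of all genes. With the correction and 1 library left out, the call held in 12 of 12 fits for DDX58 and IFI16 and in 1 of 12 for AIM2. Less than additive were TICAM1, the adaptor of TLR3 (-1.09), IRF3, the factor that switches on interferon genes (-0.89), and ZDHHC1, a STING partner named here after its value was seen (-0.85). After the correction none of 22 was less than additive, and the call for IRF3 held in 8 of the 12 fits that each left out 1 library, with the highest adjusted p without siNC DMSO replicate 1 (0.0619). STING1 was at 54.8 ± 5.21, 60.1 ± 7.45, 37.8 ± 3.01 and 25.9 ± 7.20 TPM (SD, n = 3) in the order of groups used above, with an interaction of -0.69 that missed the threshold (95% interval -1.20 to -0.18, adjusted p = 0.0599). CGAS stood at 0.935 to 2.60 TPM in all libraries and its interaction was 0.09 (95% interval -0.65 to 0.83). MAVS (-0.54, -1.08 to -0.01), TBK1 (0.69, 0.14 to 1.25) and IFIH1, the MDA5 sensor (0.92, -0.06 to 1.90), were not called either (adjusted p = 0.145, 0.0780 and 0.173).

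Among genes that trim or degrade nucleic acids, SAMHD1, which breaks down nucleotides, was more than additive. It was at 5.51 to 10.7 TPM in the other 9 libraries and at 46.1, 37.9 and 43.3 in the combination (interaction 1.88, SE 0.22, adjusted p = 0.00134). TREX1, the main cytosolic DNA exonuclease, was at 20.1, 24.1 and 8.79 TPM with siNC DMSO, 3.61, 18.7 and 27.4 with siNC poly(dA:dT), 15.99, 4.88 and 5.03 with siQ61K DMSO, and 41.1, 43.9 and 53.03 with siQ61K poly(dA:dT). The combination was highest, but the other 3 groups overlapped and were widely spread. Its interaction of 2.80 (SE 0.83, adjusted p = 0.0357) lost its call after the correction (adjusted p = 0.0761) and held in 5 of the 12 fits that left out 1 library, with the highest adjusted p without siNC DMSO replicate 1 (0.0863). Of 18 RNA polymerase III subunits, 4 were more and 3 less than additive as deposited, and 1 and 0 after the correction, with a median of -0.17 that became 0.01. Over all genes 6.00% were more and 12.1% less than additive as deposited, and 1.41% and 0.671% after the correction.

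Interferon genes themselves gave almost no signal. Of 20 type I and III interferon genes, 1 was tested, IFNE, which was not called. IFNB1 was listed at 0 in 10 libraries, at 0.108 TPM in 1 siNC poly(dA:dT) library and at 0.226 TPM in 1 siQ61K poly(dA:dT) library. IFNL1 was listed above 0 only in 1 siQ61K poly(dA:dT) library (0.356 TPM). Depth is unknown in TPM, so a difference between groups was not detectable for these genes.

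Downstream of the receptor, IRF9 and STAT2, partners in the interferon-induced factor, did not get the same call. IRF9 stood at 13.6, 14.8 and 17.5 TPM with siNC DMSO, 48.7, 44.8 and 46.4 with siNC poly(dA:dT), 23.3, 21.3 and 17.8 with siQ61K DMSO, and 57.9, 63.3 and 70.5 with siQ61K poly(dA:dT). It rose with poly(dA:dT) under either siRNA (1.55 and 1.58), and its interaction was 0.03 (95% interval -0.38 to 0.43, adjusted p = 0.938). Multiplied effects predicted 62.5 TPM for IRF9 and 63.9 was observed. STAT2 had means of 15.6, 17.3, 25.1 and 47.9 TPM in the same order of groups and an interaction of 0.78 (SE 0.21, adjusted p = 0.0235) that was called after the correction. Its call held in 6 of the 12 fits that left out 1 library, with the highest adjusted p without siNC poly(dA:dT) replicate 1 (0.0614).

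Among inhibitors of the pathway, USP18, which restrains the interferon receptor and removes ISG15 from proteins, was more than additive, with means of 1.84, 3.75, 2.56 and 24.6 TPM (interaction 2.10, SE 0.36, adjusted p = 0.00726). SOCS3, an inhibitor of JAK kinases, was less than additive (-1.23, adjusted p = 0.0256), but not after the correction (adjusted p = 0.189). Its call held in 5 of the 12 fits that left out 1 library, with the highest adjusted p without siNC DMSO replicate 1 (0.0688). Of 18 receptor signalling genes, 5 were more and 1 less than additive (6.00% and 12.1% of all genes), and 4 and 0 after the correction (1.41% and 0.671% of all genes).

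In the ISG15 and PARP pathway, 7 of 12 genes were more than additive and none less, with a median of 1.28, and 9 were more than additive after the correction with a median of 1.1999. Over all genes 6.00% were more than additive as deposited and 1.41% after the correction. PARP14, a mono-ADP-ribosyltransferase, was at 6.94, 9.59 and 8.25 TPM with siNC DMSO, 8.21, 6.99 and 9.43 with siNC poly(dA:dT), 7.51, 6.82 and 11.3 with siQ61K DMSO, and 32.6, 30.3 and 28.5 with siQ61K poly(dA:dT). It was not called with either agent alone (adjusted p = 0.993 for poly(dA:dT) under siNC and 0.940 for the knockdown in DMSO), and the combination lay above the rest with no overlap (interaction 1.76, SE 0.26, adjusted p = 0.00459). HERC6, an E3 ligase of the HERC family, had the same form at 16.6 ± 0.879 TPM (SD, n = 3) in the combination and means of 4.73 to 5.32 TPM elsewhere. HERC5, the main ISG15 ligase, had an interaction of 2.06 (SE 0.29, adjusted p = 0.00301). Outside the combination it reached 1 TPM only in siNC poly(dA:dT) replicates 1 and 2 (1.006 and 1.34 TPM). HERC5 thus passed the filter only with the combination counted. ISG15 was listed at 0 in all 3 siNC DMSO libraries and reached at most 4.90 TPM in 1 siQ61K poly(dA:dT) library. Its interaction of 0.20 had a 95% interval of -1.16 to 1.55, so neither additivity nor a large departure from it could be seen.

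**Figure D3:**
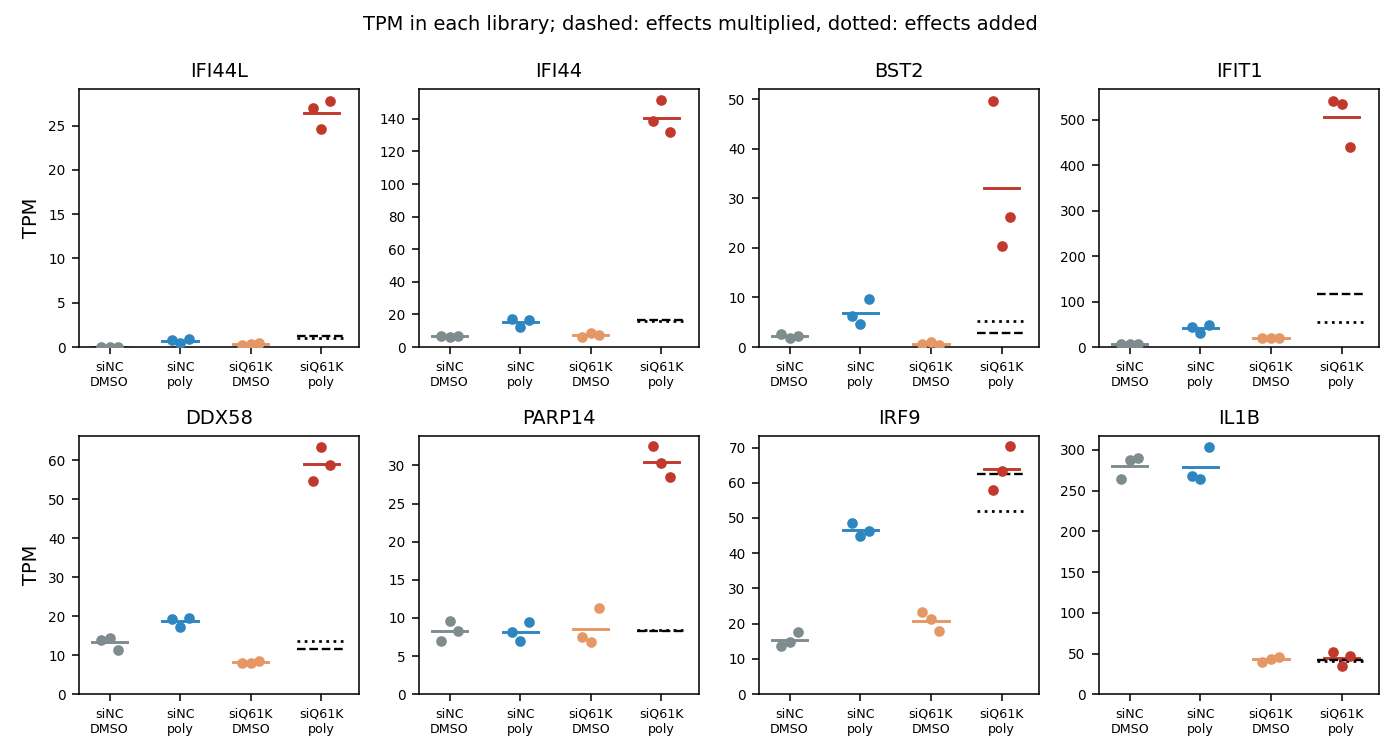
TPM in each of the 12 libraries for 8 genes; points are libraries, coloured bars are group means, and the black lines in the last group mark the level expected if effects multiplied (dashed) or added (dotted). IFI44L, IFI44, BST2, IFIT1, DDX58 and PARP14 lie above both lines in every siQ61K poly(dA:dT) library, and IRF9 and IL1B lie near the dashed line.

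Genes that present antigen to T cells showed smaller departures. Of 23, 5 were more and 1 less than additive as deposited (6.00% and 12.1% of all genes), and 6 and 0 after the correction (1.41% and 0.671% of all genes). B2M, the shared light chain of MHC class I, was at 1647 to 1985 TPM in the other 9 libraries and at 2939, 3189 and 3337 in the combination (interaction 0.85, SE 0.13, adjusted p = 0.00469). After the correction the interaction of B2M was 0.49 (adjusted p = 0.0499). With the correction and 1 library left out, its call held in 2 of 12 fits. The heavy chains HLA-B (0.73, adjusted p = 0.0373) and HLA-C (0.91, adjusted p = 0.0400) also had higher means in the combination, 60.01 ± 5.66 and 33.1 ± 5.63 TPM (SD, n = 3). As deposited, their calls held in only 2 (HLA-B) and 3 (HLA-C) of the 12 fits that left out 1 library. The highest adjusted p was without siQ61K poly(dA:dT) replicate 2 (0.0780 and 0.0961). After the correction both were called (1.22 and 1.56, adjusted p = 0.00199 and 0.0145). With the correction and 1 library left out, both calls held in 12 of 12 fits. HLA genes are similar to each other in sequence, so reads may be shared between them. PSME1, a proteasome activator subunit, was more than additive (0.75, adjusted p = 0.00993) in both fits.

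Of 13 T-cell chemokines and checkpoint ligands, 5 were more and 1 less than additive as deposited (6.00% and 12.1% of all genes), and 1 and 0 after the correction (1.41% and 0.671% of all genes). Of the 5, CXCL11 and TNFSF10 reached 1 TPM in the combination alone and were tested only through it. The 1 called after the correction was LGALS9. This galectin gene, a ligand of the T-cell receptor TIM-3, had means of 2.53, 3.16, 4.70 and 23.6 TPM (interaction 1.96, SE 0.44, adjusted p = 0.0146). With the correction and 1 library left out, the call for LGALS9 held in 5 of 12 fits. The T-cell chemokine CXCL10 was listed at 0 in all siNC DMSO libraries and was at 4.18, 5.22 and 4.29 TPM in the combination. Its call (1.30, adjusted p = 0.0287) was lost after the correction (adjusted p = 0.273) and held in 6 of the 12 fits that left out 1 library, with the highest adjusted p without siQ61K poly(dA:dT) replicate 2 (0.0678). CXCL11 (1.26) and TNFSF10, the death ligand TRAIL (1.30), lost theirs after the correction as well (adjusted p = 0.363 and 0.148) and held in 5 and 10 of those 12 fits, with the highest adjusted p without siQ61K poly(dA:dT) replicate 2 (0.0703) and siNC DMSO replicate 1 (0.0591). CD274, which encodes PD-L1, was not called (0.46, 95% interval -0.29 to 1.21, adjusted p = 0.381).

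Genes less than additive were, at the median, higher with the knockdown in DMSO and lower with it in poly(dA:dT). In this class the median effect of the knockdown was 0.56 in DMSO and -0.41 with poly(dA:dT). The class is defined by the difference between these 2 effects, so a lower value with poly(dA:dT) follows from the definition. MKNK2, a kinase that ERK activates and that phosphorylates the translation factor eIF4E, was at 42.2, 48.5 and 59.7 TPM with siNC DMSO, 67.9, 56.2 and 68.6 with siNC poly(dA:dT), 106, 89.4 and 115 with siQ61K DMSO, and 46.0, 30.5 and 26.4 with siQ61K poly(dA:dT). The combination overlapped the siNC DMSO group and lay below both groups given 1 agent. Multiplied effects predicted 132 TPM where 34.3 was observed. Its interaction was -1.96 (SE 0.27, adjusted p = 0.00293), and -1.19 after the correction (adjusted p = 0.00589).

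PHLDA3, a p53 target that restrains AKT, was at 54.99, 63.1 and 79.4 TPM with siNC DMSO, 115, 90.4 and 67.6 with siNC poly(dA:dT), 156, 141 and 130.03 with siQ61K DMSO, and 83.6, 51.5 and 52.5 with siQ61K poly(dA:dT). The siQ61K DMSO group was highest without overlap, and the other 3 groups overlapped (interaction -1.65, SE 0.30, adjusted p = 0.00853). It was the one p53 target of 24 less than additive after the correction (0.671% of all genes). As deposited, 8 had been less and 2 more than additive (12.1% and 6.00% of all genes). BAX (-1.42), TP53I3 (-1.40) and BBC3 (-1.34), all p53 targets in apoptosis, lost their calls after the correction (adjusted p = 0.0901, 0.105 and 0.0936), and the first 2 of them held in 10 and 9 of the 12 fits that left out 1 library. The highest adjusted p was 0.0529 for BAX (siQ61K poly(dA:dT) replicate 3 left out) and 0.0566 for TP53I3 (siNC DMSO replicate 1 left out). Called in both fits were also KMT2D, a histone H3 methyltransferase (-2.04), TFAP4, a transcription factor (-1.86), and MEX3C, an RNA-binding ubiquitin ligase (-2.60, with means of 7.67, 10.4, 16.7 and 2.89 TPM). With the correction and 1 library left out, the call held in only 3 of 12 fits for PHLDA3, 2 for KMT2D and 5 for MEX3C.

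The other gene lists are read against the shares over all genes, 6.00% more and 12.1% less than additive as deposited, and 1.41% and 0.671% after the correction. Of 33 ERK target genes, 7 were less and none more than additive, with a median of -0.30, and after the correction none was called, with a median of -0.03. Of 33 extracellular matrix genes 8 were less than additive, and none of 31 after it. Among 25 sterol and fatty acid genes 4 were more and 7 less, and none after it. The next 3 lists were near the shares over all genes. Among 23 NF-kB and inflammatory genes 1 was more (CXCL8, 1.05) and 3 less, and none after it. Of 38 cell division genes 3 were more and 4 less, and none after it. Of 25 RAS pathway components 2 were less than additive, MAPK3 (-0.81) and MAP2K2 (-0.71), and none after it. MAPK3 held in 4 of the 12 fits that left out 1 library, with an adjusted p up to 0.0905.

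**Figure D4:**
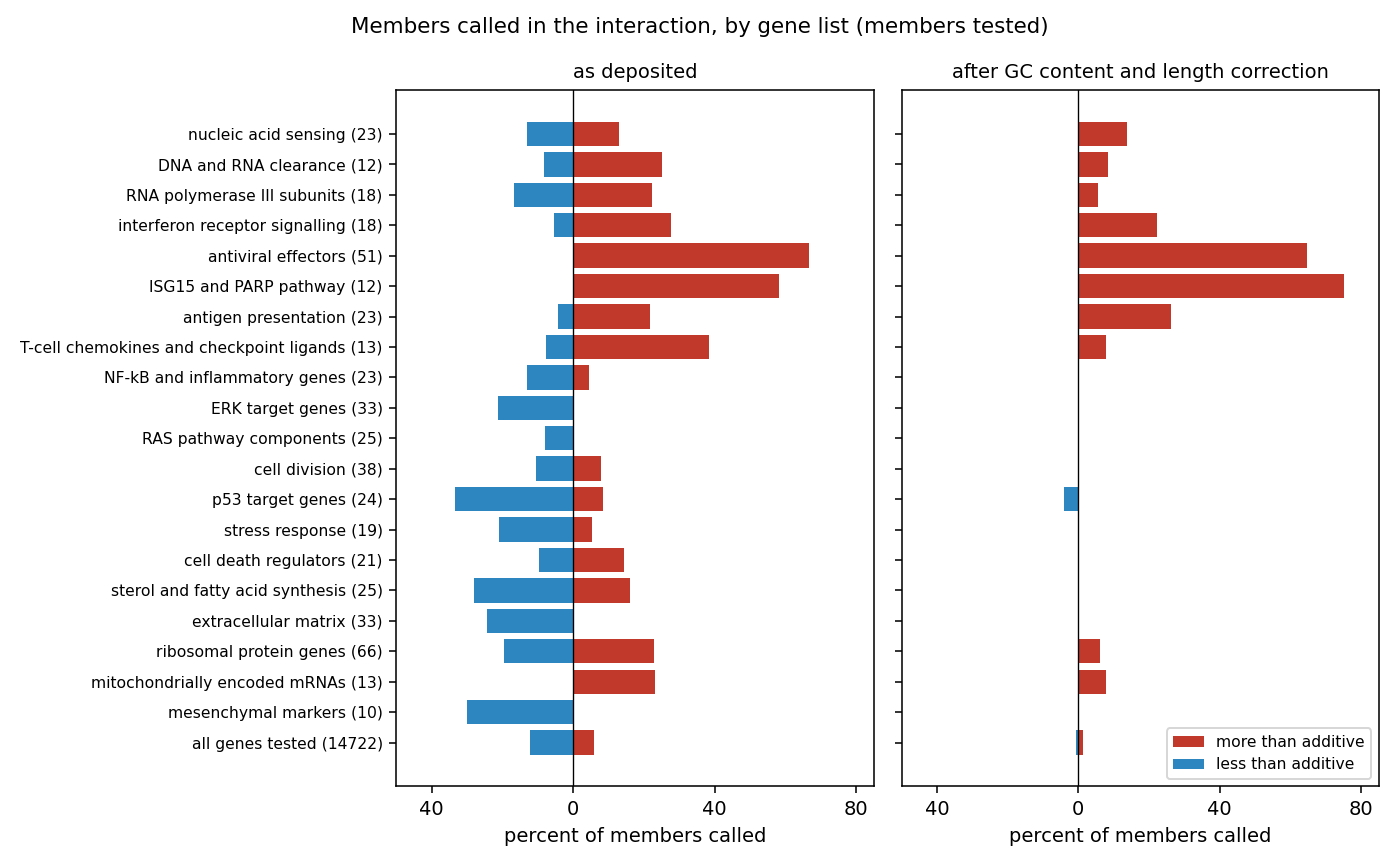
Percent of tested members called more than additive (red, to the right) and less than additive (blue, to the left) in each gene list with at least 10 members tested, as deposited (left panel) and after the GC content and length correction (right panel). After the correction, 33 of 51 antiviral effectors and 9 of 12 ISG15 and PARP genes were more than additive, while the ERK target and extracellular matrix lists had none.

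Some genes that moved with the knockdown had interactions near 0. SPRY2, a feedback inhibitor of RAS signalling, was at 67.1 to 74.6 TPM in the siNC libraries and at 19.3 to 23.1 in the siQ61K libraries, with an interaction of 0.03 (95% interval -0.29 to 0.36). IL1B, an inflammatory cytokine, was at 264 to 304 TPM under siNC and at 34.1 to 51.5 under siQ61K, with an interaction of 0.03 (-0.39 to 0.45). IL32, another cytokine, was at 4.62 to 5.69 TPM under siNC and at 54.4 to 79.9 under siQ61K, with an interaction of -0.24 (-0.67 to 0.18). For these 3 genes the intervals lie within a change of 1 on the log2 scale, and their responses to poly(dA:dT) were not called under either siRNA (the lowest adjusted p was 0.484, for IL32 under siQ61K).

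Pseudogenes stood at both ends of the interactions. Of 31 genes beyond 3 on the log2 scale in either direction, 9 were protein coding, against 80.9% of all genes tested. The rest included noncoding RNA entries such as FOXD1-AS1 and AP000879.1 as well as pseudogenes, and 8 of the 31 were not called. RPL23AP42, a processed pseudogene of the ribosomal protein gene RPL23A, had the highest value (12.01) with means of 217, 5.51, 1.08 and 159.6 TPM. RPL23A itself had means of 3597, 3765, 3409 and 3885 TPM and an interaction of 0.13 (95% interval -0.14 to 0.39), and the sum of the 2 gave 0.26. FABP5P7 had the lowest value (-7.62) with means of 1.58, 24.0, 41.3 and 4.43 TPM. Its parent FABP5, a fatty acid carrier, was more than additive (0.99), and their sum gave -0.46. SRP9P1 was listed at 0 in 9 libraries and at 23.6, 63.2 and 3.89 TPM with siQ61K DMSO. No source used here says how reads were shared between such copies, so these values are uncertain.

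EIF4A3, the core helicase of the exon junction complex, was at 34.4, 15.6 and 13.5 TPM with siQ61K DMSO and at 0 to 1.003 TPM in the other 9 libraries, an interaction of -4.04 (SE 0.49, adjusted p = 0.00136). This gene is needed by every cell, so its listed levels near 0 are uncertain. FHL1, a LIM domain protein of muscle and other mesenchymal cells, was at 85.8, 43.1 and 49.6 TPM with siNC DMSO, 52.8, 33.9 and 33.8 with siNC poly(dA:dT), 4.52, 1.81 and 9.96 with siQ61K DMSO, and 34.9, 97.1 and 114 with siQ61K poly(dA:dT). It was low with siQ61K DMSO alone, and the other 3 groups overlapped (interaction 4.26, SE 0.68, adjusted p = 0.00627).

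Among 13 mitochondrially encoded mRNAs, 3 were more than additive and none less (6.00% and 12.1% of all genes). MT-ATP8 had means of 1005, 222, 381 and 496 TPM and an interaction of 2.64 (SE 0.56, adjusted p = 0.0122), while MT-ATP6, which lies on the same mRNA and overlaps it, was not called (0.60, adjusted p = 0.205). MT-ND4L (2.01) and its partner on the same mRNA, MT-ND4 (0.42, adjusted p = 0.425), showed the same contrast. MT-ATP8 and MT-ND4L lost their calls after the correction (adjusted p = 0.0558 and 0.0829), and MT-ND4L without siQ61K poly(dA:dT) replicate 3 as well (adjusted p = 0.0521). The third, MT-ND3 (1.54, adjusted p = 0.00178), kept its call after the correction (1.08, adjusted p = 0.0344). With the correction and 1 library left out, the call for MT-ND3 held in 4 of 12 fits. The ribosomal protein gene RPS29 had means of 4286, 2162, 1546 and 3946 TPM. It fell with the knockdown in DMSO (log2 fold change -1.46), and its response under siNC (-0.98) missed the threshold (adjusted p = 0.0616, interaction 2.33, SE 0.25, adjusted p = 0.000620). Of 66 ribosomal protein genes 15 were more and 13 less than additive as deposited (6.00% and 12.1% of all genes), and 4 and 0 after the correction (1.41% and 0.671%). MT-ATP6 and MT-ND4 were named after their values were seen.

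In all 24 alternative analyses listed below, which include a minimum mean of 5 TPM and the leaving out of each library, 87 genes were called more than additive and 40 less than additive. Of the 87, 36 belonged to 7 interferon and immune lists that hold 151 of the 14722 genes tested, and of the 40, none did. The 36 include IFI44L, which passed the 1 TPM filter only through the combination. MX1, also among them, was at 0.983 to 4.45 TPM outside the combination and met the mean of 5 TPM only through it. The lists were chosen with earlier results known, and the study named the interferon response as an outcome. This count therefore does not stand as independent evidence.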

How the data were processed

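Libraries were made from total RNA of HT1080 cells and sequenced by Illumina, per the labels' protocols. The authors deposited 1 table of TPM values per gene symbol. The submitters' processing notes name Salmon 0.8.0 and hg19; the sources used here say nothing of the annotation or of how transcripts were summed. The columns were matched to the sample titles by their short names, which is an inference. TPM keeps no depth, so depth cannot be given and no counting interval was computed.

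Of 56227 entries, 984 that shared 58 symbols were left out. log2(TPM + 1), pseudocount 1, was fitted with cell means for the 4 groups in limma 3.58.1 under R 4.3.3, using a variance trend and a threshold of 0.05. The fit was tested on simulated data. GC content and length came from the longest transcript in GENCODE 29 (97.1% of genes tested), and each library was corrected for them by lowess with span 0.3. Promoters were matched by symbol, 270 of them through a synonym. Replicate libraries correlated at 0.966 to 0.984.

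The interaction, the 23 gene lists and the rule for named genes were chosen with earlier results of these data known. The rule took the 12 highest and 12 lowest interactions called in both fits and the 5 highest and 5 lowest called as deposited, all reaching a mean of 5 TPM, up to 4 called members per list, and 21 fixed genes. IFI6, IL1B, IL32, RPL23A, FABP5, CD274, ZDHHC1, MT-ATP6 and MT-ND4 were added after their values were seen. The values of 1 named gene are not reported here. Alternatives were other pseudocounts (0.1 and 5), dropping the filter or raising it to a mean of 5 TPM, median-of-ratios and quantile scaling, the correction, a residual component as covariate, sample weights, no variance trend, a replicate block with and without the correction, and each library left out. The last was repeated with the correction after the data were seen.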

Additional observations from a re-analysis of the deposited data

Results flagged for a closer look

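By the interaction test, poly(dA:dT) responses were not the same under siNC and siQ61K for 883 genes in one direction and 1779 in the other, and for 102 of the named genes. Interactions of named genes on the log2(TPM + 1) scale are given here, each called by limma with an adjusted p under the threshold, as deposited and before the correction for GC content and length, after which 57 of these calls were lost.

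Interactions above 2 were RPL23AP42 12.01, FOXD1-AS1 10.06, AP000879.1 5.47, AC034102.2 5.03, AL139099.1 4.84, AC005912.1 4.65, FHL1 4.26, AC005339.1 3.89, AC004832.3 3.63, IFI44L 3.59, AP001324.1 3.41, AL450306.1 3.22, IFI44 3.01, BST2 2.98, TREX1 2.80, MT-ATP8 2.64, IFIT3 2.62, RPS29 2.33, DDX58 2.24, IFIT1 2.11, USP18 2.10, HERC5 2.06, MT-ND4L 2.01. Those between 1 and 2 were LGALS9 1.96, SAMHD1 1.88, PARP14 1.76, MT-ND3 1.54, HERC6 1.48, AIM2 1.37, RPS21 1.36, CXCL10 1.30, TNFSF10 1.30, CXCL11 1.26, IFI16 1.18, CXCL8 1.05. Those under 1 were CASP1 0.97, POLR2K 0.96, PMAIP1 0.92, HLA-C 0.91, MAD2L1 0.90, DNAJB9 0.87, PTPN2 0.86, B2M 0.85, POLR3F 0.84, POLR1D 0.82, STAT2 0.78, TOP2A 0.77, PSME1 0.75, RNASEH2B 0.75, HLA-B 0.73.

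Interactions below -1.5 were FABP5P7 -7.62, AL583722.1 -6.18, SRP9P1 -4.31, EIF4A3 -4.04, AC114546.3 -3.70, AC115223.1 -2.70, AC018638.1 -2.61, MEX3C -2.60, AP002381.2 -2.18, KMT2D -2.04, MKNK2 -1.96, FAM207A -1.89, TFAP4 -1.86, PHLDA3 -1.65. Those nearer 0 but at or below -1 were IL11 -1.47, BAX -1.42, TP53I3 -1.40, POLR2E -1.38, BBC3 -1.34, FASN -1.27, RPS7 -1.27, RELB -1.26, TWIST1 -1.23, SOCS3 -1.23, RPS2 -1.22, DHCR7 -1.18, TICAM1 -1.09, MMP14 -1.08, TAGLN -1.05, EPHA2 -1.03, COL6A2 -1.03, MVD -1.02, PPP1R15A -1.01, MCM5 -1.00002. The remaining ones were IER2 -0.98, LOXL2 -0.96, BCL2L1 -0.94, LSS -0.93, ITGA3 -0.92, SHMT2 -0.90, IRF3 -0.89, ETV4 -0.85, NFKB2 -0.84, RNASEH2A -0.82, MAPK3 -0.81, PHLDA2 -0.75, MAP2K2 -0.71, KRT8 -0.70, PLK1 -0.65, SPARC -0.64, HYOU1 -0.54.

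No gene was examined for single far libraries, since that was done only for groups of 4 or more. Library weights estimated over all genes ran from 0.382 to 4.45.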

How the results depend on the processing

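None of the first 24 alternatives (all but the leave-one-out fits with the correction) reversed a called interaction of a named gene. Of 102 called named genes, 45 kept their call after the GC content and length correction and 57 lost it. The rule picked 12 highest and 12 lowest of the named genes because both fits called them, so this share is not that of all genes. Over all genes tested, both fits called 159 of the 883 more than additive and 87 of the 1779 less than additive. Counts of 883 more and 1779 less than additive stayed within 1.5 times with pseudocounts of 0.1 and 5 and with the residual component. They were 330 and 696 without a filter on low values (28613 not called), while a mean of at least 5 TPM left 7143 not called, since fewer genes were tested. Median-of-ratios scaling gave 1353 and quantile scaling 1426 more than additive. The correction gave 201 and 96, sample weights 2570 and 3010, and no variance trend 539 more than additive. Leaving out 1 library gave 304 to 1319 more and 672 to 2558 less than additive, and with the correction, a setting chosen after seeing the data, 79 to 657 and 14 to 594. Over all these fits the interaction ran from -0.84 to 0.00466 for MAP2K2, from -0.99 to 0.0334 for NFKB2, from -0.90 to 0.0108 for PHLDA2 and from -0.76 to 0.0174 for PLK1. The values above 0 came with the correction and without siQ61K DMSO replicate 2 (MAP2K2), siNC DMSO replicate 3 (PHLDA2) or siQ61K poly(dA:dT) replicate 2 (NFKB2 and PLK1), and none of the 4 was called after the correction with all libraries. The cause of these changes was not tested.

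Libraries of the same replicate number had residual correlations of -0.260 to 0.233, and 4 of 12 correlated best with a library of their own number. The labels do not say whether libraries of the same number share a culture or batch, and these few values cannot settle it. With a replicate block the counts were 681 and 1562, and with the block and the correction 143 and 63. TPM gives no depth, so the precision of low genes such as IFNB1 and ISG15 cannot be stated.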

Other observations

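Calls differed with transcript length. Among genes whose longest transcript had 1000 bases or fewer, 96 of 1590 were more than additive (6.04%) and 88 less (5.53%). With over 1000 to 3000 bases the counts were 409 (8.22%) and 793 (15.9%) of 4978, and with over 3000 bases 361 (4.67%) and 858 (11.1%) of 7731. After the correction, 36 (2.26%), 94 (1.89%) and 71 (0.918%) of these genes were more than additive.

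Of 12 genes for DNA and RNA clearance 3 were more and 1 less than additive, of 19 stress response genes 1 and 4, and of 21 cell death regulators 3 and 2. Of 10 mesenchymal markers tested 3 were less than additive, as was 1 of 2 epithelial and endothelial markers. After the correction 1 clearance gene and 1 mitochondrial mRNA were more than additive and no gene of the other 4 lists was called. Over all genes 6.00% were more and 12.1% less than additive as deposited, and 1.41% and 0.671% after the correction. Of the 3 cell death regulators more than additive, TNFSF10 was tested only through the combination.

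Outside the antiviral list, 98 genes with a promoter entry were more than additive in both fits. The interferon-stimulated response element core was found for 15 of them (15.3%), against 4.03% of all genes tested. The 98 still include members of the other interferon and immune lists, such as HERC5 with 3 matches. They are thus not a set free of known interferon-stimulated genes, and this share was not tested.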
